A study of Mus musculus with 2 samples.

Results

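Epithelial lineage transcription factors are the DNA-binding proteins that give an epithelium its identity and drive its layers toward their mature form. Here 10 of them were looked up by gene name among the spots of 2 mouse arrays that are not controls: Elf3, Ehf, Elf5, Klf4, Klf5, Foxa1, Gata3, Grhl1, Grhl3 and Ovol1. For 9 of the 10 a probe was found, 14 probes among 41174. Grhl3 was not analysed here. The RNA came from prostaspheres, which are spheres grown in matrigel from prostate epithelial cells of C57/Bl6J mice, and each array held 2 RNAs. On the genotype array, RNA of wild-type cells given tamoxifen (TAM) carried Cy5 and RNA of ER-Sox9flox/flox cells given TAM carried Cy3. On the treatment array, both RNAs were from ER-Sox9flox/flox cells, with Cy5 for the culture given vehicle and Cy3 for the culture given TAM. In ER-Sox9flox/flox cells both copies of Sox9 are floxed and a Cre recombinase made from the Rosa26 locus becomes active with TAM, so TAM deletes Sox9 in these cells, whereas the vehicle culture keeps the floxed copies. TAM was used at 5 µM, and all cultures had 6 days in matrigel with the androgen DHT before 6 days of exposure. The labels name UGS epithelium of embryos at 16 dpc as the source, while the methods describe the assay with adult prostate. Whether the wild-type cells carry the Cre and whether animals were pooled is not given in the sources used here.

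The factors belong to several families with linked tasks. Ehf, Elf3 and Elf5 form the epithelium-specific branch of the Ets family, which binds near genes of secretory and stratified epithelia. Klf4 and Klf5 are zinc finger factors of the same family, the former known for barrier formation and exit from the cell cycle and the latter for growth of basal cells. Gata3 and Foxa1 open chromatin in luminal epithelia, and in prostate Foxa1 works beside the androgen receptor. Grhl1 and Ovol1 act in maturing epithelia, Grhl1 on genes of desmosomes and Ovol1 on exit from growth.

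Each value is a log2 ratio of the RNA with Sox9 over the Sox9-deleted RNA, called RNA without Sox9 below. The mean ± SD is over both arrays (n = 2). Since the RNA with Sox9 carried Cy5 on both arrays, dye bias and Sox9 cannot be told apart. The arrays also differ in design, because the cells of the genotype array are of separate mouse lines, whereas the treatment array sets TAM against vehicle in 1 line. Brightness is given in arbitrary units after normalization and is compared only between RNAs for the same probe. In cultures that may hold several cell types, fewer cells of a type and less RNA per cell cannot be told apart. As a check of the deletion, the brightest of 3 Sox9 probes had a mean log2 ratio of 2.53 ± 0.23 and a second 1.22 ± 0.07, while the most distal one, at -1.11 ± 0.16, was lower with Sox9, though too dim to count as above background in wild-type cells. All 3 probes were well above background in both Sox9-deleted RNAs, so some signal remained there. The brightest read 253 and 232 in these RNAs, against 1634 in wild-type and 1198 in vehicle RNA. All 10 of 10 general epithelial markers were well above background, among them Krt5, Krt14, Krt8 and Krt18. The prostate marker Pbsn was not well above background in any RNA.

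Among the 14 probes, 3 have genomic spans of 160 to 9733 bases in the array annotation (build mm9), far longer than their 60 bases, which places them across exon junctions of spliced RNA. They are shown because they read Ehf and Klf5 from joined exons, so that the values of Ehf come from 3 separate stretches of its RNA. The sequences, as deposited, run 5′ to 3′ in lower case.
Ehf probe 2, chr2:103114085-103114244, minus strand: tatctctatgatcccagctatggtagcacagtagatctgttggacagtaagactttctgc
Ehf probe 3, chr2:103119907-103123723, minus strand: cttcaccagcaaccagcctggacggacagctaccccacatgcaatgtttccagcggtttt
Klf5 probe 1, chr14:99702656-99712388, plus strand: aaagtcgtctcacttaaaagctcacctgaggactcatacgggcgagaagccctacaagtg
The remaining probes lie in 1 block each and are identified below by position only.

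Of the 14 probes, 13 (8 genes) entered the test, which took probes that the scanner software marked well above background on each array in at least 1 shared dye. With limma, 0 of the 13 passed an adjusted p under 0.05, a threshold that 2 of all 22731 tested probes passed (0.0088%). At an unadjusted p under 0.05 the count was 4 of 13, the 3 probes of Ehf and the probe of Klf4, all higher with Sox9. Of all tested probes 17.5% passed that level, and 9.48% were higher. Under the methods' t-test on the same values none of these 4 passed that level, and the 2 of 13 that did were the dim probes Klf5 probe 2 and Ovol1 probe 1. After adjustment it gave 0. No member was at least 2-fold different in one direction on both arrays, which held for 0.418% of all tested probes. On the treatment array alone 1 member probe reached 2-fold, a probe of Ehf that was higher with Sox9 (1.35% of all tested probes were), and on the genotype array 0 did (1.31%). Both arrays gave a higher value with Sox9 for 6 of the 13 (34.5% of all tested probes) and a lower value for 4 (32.6%), while 3 had opposite signs. Over the 8 genes, each read from its brightest tested probe, the median log2 ratio was 0.04, against 0.003 over all 15131 tested genes. Of these 8, 2 passed limma at an unadjusted p under 0.05, Ehf and Klf4 (19.5% of all tested genes). Both arrays were higher for 3 of the 8 (33.8% of all tested genes), lower for 3 (33.7%) and opposite for 2.

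**Figure D1:**
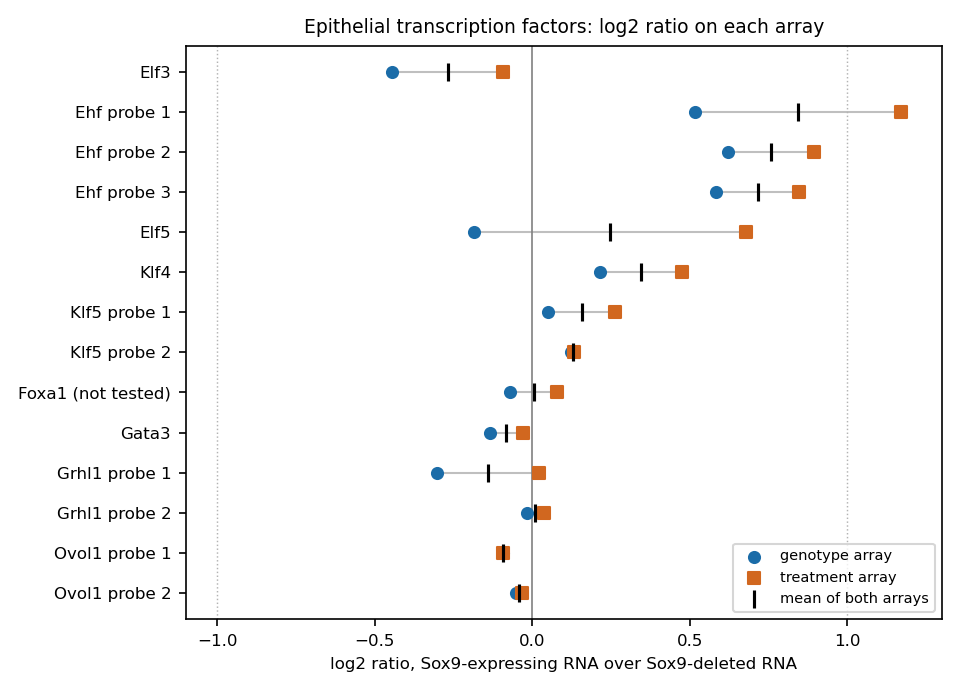
The log2 ratio of Sox9-expressing over Sox9-deleted RNA (x axis) is plotted for each of the 14 probes (y axis), with a circle for the genotype array, a square for the treatment array and a bar for their mean, and dotted lines mark 2-fold. The 3 Ehf probes lie farthest right on both arrays, Elf5 crosses 0, and Elf3 has the lowest mean. Foxa1 was not well above background in any RNA and its points have no measured level behind them.

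Ehf, an Ets factor of glandular and stratified epithelia, was the highest member, and its 3 probes agreed in sign on both arrays. Its probe 1 (chr2:103104384-103104443, minus strand) had a brightness of 1214 in wild-type cells with TAM and 849 in the Sox9-deleted RNA of that array, and 1791 in ER-Sox9flox/flox cells with vehicle and 795 in the Sox9-deleted RNA of the other. Both RNAs with Sox9 thus lay above both Sox9-deleted RNAs, without overlap. The ratio was 1.43-fold on the genotype array and 2.25-fold on the treatment array, and the mean on the log2 scale was 0.84 ± 0.46 (SD, n = 2, limma adjusted p = 0.184). That is the percentile 99.1 of all tested probes. RNAs with and without Sox9 were likewise apart, in one direction or the other, for Klf4, Elf3, Gata3 and both probes of Klf5 and Ovol1. The separation thus held also for the nearly level Gata3 probe (mean log2 ratio of -0.08) and for the dim probes of Ovol1. How many of all tested probes show it was not counted, so it is a description that does not set Ehf or Klf4 apart.

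Probe 2 of Ehf read 1140 and 741 on the genotype array and 1406 and 757 on the treatment array, in each case with the Sox9-expressing RNA first. Its mean log2 ratio was 0.76 ± 0.19 (n = 2, limma adjusted p = 0.122), 1.54-fold on the genotype and 1.86-fold on the treatment array. For probe 3 the brightness was 630 and 421 on the former and 680 and 378 on the latter, with a mean log2 ratio of 0.71 ± 0.19 (n = 2, limma adjusted p = 0.125). In probes 2 and 3, too, the RNAs with Sox9 did not overlap those without it. The means of the 3 probes differed by less than the SD of probe 1 between arrays, and each was larger than its own SD. Probes of 1 gene read the same RNA, so they are not replicates of the comparison. With median centring in place of loess normalization the 3 probes passed the adjusted test (limma adjusted p of 0.0027, 0.00852 and 0.0199). That setting also put the median of all tested probes at 0.38 on the treatment array and called 522 probes, 491 of them higher.

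Elf5, the Ets factor of mammary alveolar and other secretory epithelia, is the next coding gene to Ehf on chromosome 2 and had a different pattern. Its probe (chr2:103290958-103291017, plus strand) read 139 in wild-type cells with TAM, 158 in the Sox9-deleted RNA beside it, 242 in ER-Sox9flox/flox cells with vehicle and 151 in the Sox9-deleted RNA of the treatment array. The vehicle RNA alone stood apart, and the other RNAs lay between 139 and 158. The log2 ratio was -0.18 on the genotype array and 0.68 on the treatment array, 1.60-fold in the latter, and the mean of 0.25 was smaller than its SD of 0.61 (n = 2, limma adjusted p = 0.619). The sign of the Elf5 value therefore depends on the array.

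Elf3, the third Ets factor of the branch and the one known for activating genes of terminal differentiation, was the lowest member. Its probe (chr1:137150328-137150387, minus strand) read 291 and 396 on the genotype array and 340 and 363 on the treatment array, with the RNA with Sox9 first. Both RNAs with Sox9 lay below both Sox9-deleted RNAs. The log2 ratios of -0.45 and -0.09 gave a mean of -0.27 ± 0.25 (n = 2, limma adjusted p = 0.341), which is close to the SD. With median centring the mean was -0.03, and on the scanner software's log ratios -0.47. Among the tested probes 7.78% had a lower mean.

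**Figure D2:**
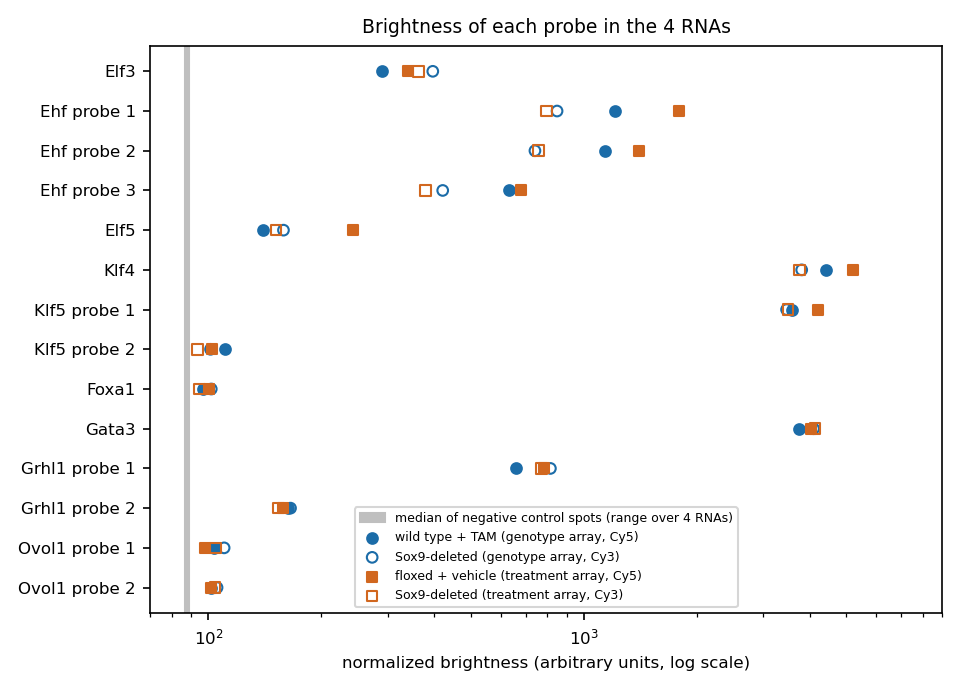
Normalized brightness (x axis, log scale, arbitrary units) of each probe (y axis) is shown in the 4 RNAs, filled symbols for RNA with Sox9 and open symbols for Sox9-deleted RNA, with circles for the genotype array and squares for the treatment array. The grey band spans the medians of the negative control spots, 86.5 to 88.7, near which the probes of Foxa1 and Ovol1 and Klf5 probe 2 lie. Brightness depends on the probe, so rows are not to be compared with each other.

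Klf4 was higher with Sox9 on both arrays, by less than Ehf. Its probe (chr4:55540833-55540892, minus strand) read 4412 in wild-type cells with TAM and 5224 in ER-Sox9flox/flox cells with vehicle, against 3806 and 3761 in the Sox9-deleted RNAs. The groups did not overlap, which was so for the nearly level Gata3 too, and the Sox9-deleted RNAs of the arrays nearly coincided. The log2 ratios of 0.21 and 0.47 gave a mean of 0.34 ± 0.18 (n = 2, limma adjusted p = 0.232), at the percentile 93.7 of the tested probes. With median centring it was 0.72.

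Klf5 was slightly higher with Sox9 on both probes and both arrays. Probe 1, which reads spliced RNA, gave 3594 and 3468 on the genotype array and 4197 and 3503 on the treatment array, log2 ratios of 0.05 and 0.26 with a mean of 0.16 ± 0.15 (n = 2, limma adjusted p = 0.438), and 0.52 with median centring. Probe 2 (chr14:99704137-99704196) lies within the genomic span of probe 1 and is annotated to another transcript record. It was dim, at 93.4 to 110, and missed the mark for background in the Sox9-deleted RNA of the genotype array. Its log2 ratios of 0.12 and 0.13 had a limma adjusted p of 0.429, and their mean of 0.13 became 1.08 on the scanner software's log ratios (limma adjusted p = 0.430). A dim probe understates a difference, because the background correction used here adds 50 units to each spot.

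Gata3, a factor of luminal and hair follicle fates, was bright and nearly level. Its probe (chr2:9778983-9779042, minus strand) read 3732 and 4093 on the genotype array and 4039 and 4127 on the treatment array. The mean log2 ratio of -0.08 ± 0.07 (n = 2, limma adjusted p = 0.616) turned to 0.29 with median centring. Foxa1 was measured by 1 probe (chr12:58641996-58642055) that was not well above background in any of the 4 RNAs, at 94.7 to 102 beside negative controls of 86.5 to 88.7, so no ratio is given for it.

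Grhl1, a Grainyhead factor that acts on desmosomal cadherin genes, had 2 neighboring probes. The brighter (chr12:25301994-25302053) read 660 and 815 on the genotype array and 784 and 772 on the treatment array, a mean log2 ratio of -0.14 ± 0.23 (n = 2, limma adjusted p = 0.554) that turned to 0.14 with median centring. The other (chr12:25302082-25302142) lay between 154 and 165 in all 4 RNAs, with a mean of 0.01 ± 0.04 (limma adjusted p = 0.956) that was below 0 on 3 other settings. Wild-type RNA was the lowest of the 4 on the first probe but not on the second, and neither mean exceeded its SD.

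Ovol1, a zinc finger repressor of maturing epidermis, was dim on both of its probes. Probe 1 (chr19:5550257-5550316, minus strand) read 103 and 110 on the genotype array and 97.9 and 104 on the treatment array, with log2 ratios of -0.09 on each (limma adjusted p = 0.549), and was slightly above 0 on the log ratios of the scanner software and in the authors' table. Probe 2 (chr19:5549209-5549268) had a highest brightness 1.04 times its lowest over the 4 RNAs, a mean of -0.04 ± 0.01 (limma adjusted p = 0.782), and missed the mark for background in wild-type cells. On the scanner software's log ratios the mean of probe 2 was -0.47 (limma adjusted p = 0.263).

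**Figure D3:**
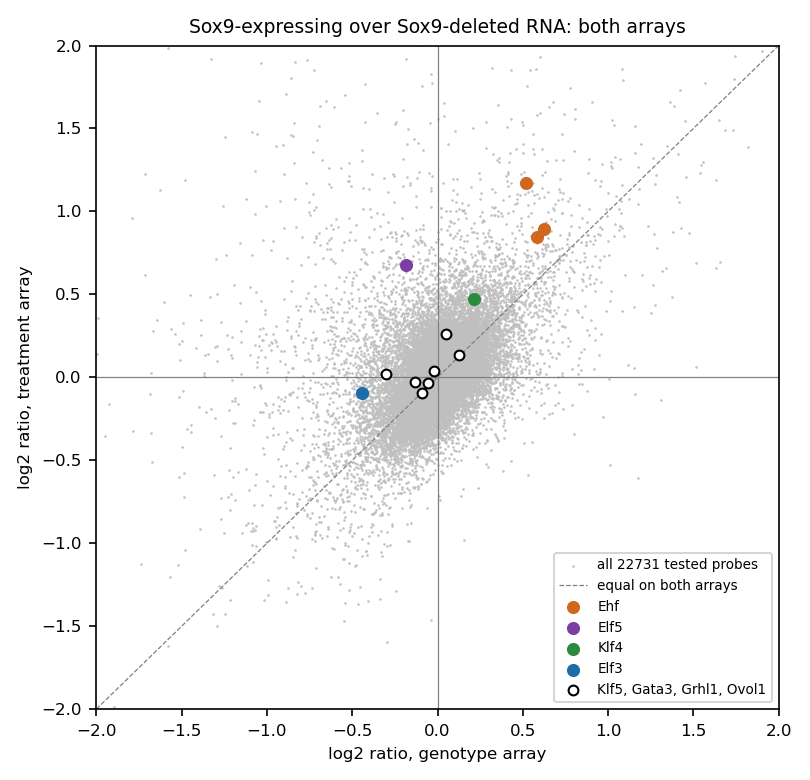
Log2 ratios of the treatment array (y axis) are plotted against those of the genotype array (x axis) for all 22731 tested probes in grey and for the 13 tested member probes in color or as open circles, and the dashed line marks equal values (65 probes lie outside the axes). All 13 member probes lie on or above the dashed line, with Elf5 and Ehf probe 1 farthest from it.

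Every one of the 13 tested member probes had a higher log2 ratio on the treatment array than on the genotype array. Among all tested probes 50.7% did. So did 12 of 15 tested relatives in the same families, 6 of 12 partner factors and 11 of 18 described targets, from the lists given below. The 13 member probes read only 8 genes. Among them the largest gap was that of Elf5 at 0.86, followed by 0.65 for Ehf probe 1, and the smallest was under 0.001 for Ovol1 probe 1. With another background correction, normalization or source of ratios, 10 to 12 of the 13 probes had the higher value on the treatment array. The share of all tested probes was not counted for these settings. With median centring, which gave 10, the median of all tested probes was itself 0.38 on the treatment array and 0.017 on the genotype array. The median over the 8 genes was -0.11 on the genotype and 0.14 on the treatment array. This difference between arrays was not tested, since each comparison has 1 array.

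The arrays share the kind of Cy3 RNA, and on that side the members were close. Between the Sox9-deleted RNAs, the treatment minus the genotype array, the log2 differences of member brightness ran from -0.15 to 0.03, and 0 members lay past 0.218, the size that 95% of all tested probes stay under. Between the RNAs with Sox9, vehicle minus wild type, they ran from -0.11 to 0.80, where the 95% limit was 0.577. Only Elf5, at 0.80, lay past it. Ehf probe 1 followed at 0.56.

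Markers of stroma were also apart between the arrays. All 9 of 9 fibroblast markers, among them Col1a1 and Col3a1, had a higher log2 ratio on the treatment array, with a median of -0.77 on the genotype and 0.50 on the treatment array. Their summed brightness was 30588 in wild-type and 77916 in vehicle RNA, against 54474 and 47502 in the Sox9-deleted RNAs. All 8 of 8 tested markers of skeletal and smooth muscle did the same (medians of -0.28 and 1.21), with sums of 7272 in wild-type, 18924 in vehicle and 9332 and 10242 in Sox9-deleted RNA. Of the 10 epithelial markers, 1 was higher on the treatment than on the genotype array. Their sum was 461840 in wild-type RNA, 394894 in vehicle RNA and 291228 and 334901 in the Sox9-deleted RNAs. Much of it came from Krt5 and Krt14, at 103273 and 134170 in wild-type RNA and 23569 and 31947 in the Sox9-deleted RNA beside it. Of the 10 markers, 6 were higher with Sox9 on both arrays, 3 lower (Krt18, Cldn7 and Cdh1) and 1 opposite. Among all tested genes 33.8% were higher and 33.7% lower on both. The immune markers Ptprc, Cd3e and Itgam were not well above background in any RNA, nor were Pecam1 and Tek of endothelium, whose list had sums of 505 to 552. Cd68 and Csf1r of macrophages and Kdr and Cdh5 of endothelium were above background in all 4 RNAs. Cd68 had log2 ratios of -0.69 and -0.77 (limma adjusted p = 0.101). The part of these cell types in the values of the members was not tested.

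**Figure D4:**
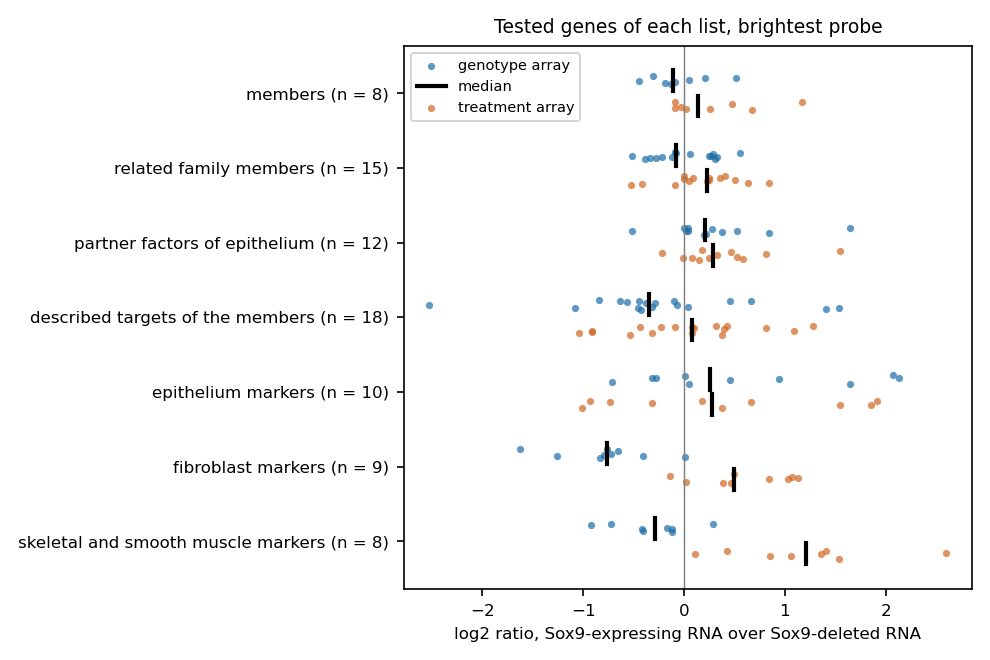
Each point is 1 tested gene of a list (y axis), read from its brightest probe, with its log2 ratio of Sox9-expressing over Sox9-deleted RNA (x axis) on the genotype array in blue and on the treatment array in orange, and the bar is the median of the list. Fibroblast and muscle markers lie mostly below 0 on the genotype array and above 0 on the treatment array, and the members have medians of -0.11 and 0.14.

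Relatives of the members in the same families were read from a list of 18 genes, of which 15 were tested. The count past the adjusted limma test was 0 (0.0132% of all tested genes). At an unadjusted p under 0.05 there were 7 of 15 (19.5% of all tested genes), 5 of them higher and 2 lower. Both arrays were higher for 7, lower for 3 and opposite for 5, and the median of the mean log2 ratio was 0.08. The highest were Klf10, a growth-restraining target of TGF-beta, at 0.70, and Klf3, a repressor of epidermal genes, at 0.47. The lowest were Klf6 at -0.40 and Ets2, an Ets factor that answers to Ras signaling, at -0.37. Foxa2 and Foxa3, like Foxa1, were not well above background in any RNA.

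Partner factors of epithelium were read from a list of 15 genes, which was chosen with earlier results of these data known. Its counts are therefore a description only. Of 12 tested factors on that list, 10 were higher with Sox9 on both arrays (8 to 11 over the other ways of scaling), 1 was lower and 1 opposite, where 33.8% of all tested genes were higher on both. The median of their mean log2 ratios was 0.26. Trp63, the master factor of basal cells, had log2 ratios of 1.65 and 1.55, a mean of 1.60 ± 0.07 (n = 2, limma adjusted p = 0.0627), and Runx1, a factor of hair follicle and basal progenitors, a mean of 0.83 ± 0.02 (n = 2, limma adjusted p = 0.0921). At the low end, Cebpb, which acts in differentiating epidermis, was at -0.37 and Cebpa at 0.04. At an unadjusted limma p under 0.05 there were 6 of 12 (19.5% of all tested genes), 5 higher and 1 lower. None of the 12 passed the adjusted test.

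Genes described as targets of the members went in both directions. Of 18 tested, 5 were higher on both arrays, 8 lower and 5 opposite (33.8% and 33.7% of all tested genes were higher and lower on both), with a median mean log2 ratio of -0.19 that turned to 0.19 with median centring. At an unadjusted p under 0.05 there were 11 of 18 (19.5% of all tested genes), 4 higher and 7 lower, and 0 passed the adjusted limma test. Pkp1, a desmosomal plaque protein, stood at 1.41 ± 0.19 (n = 2, limma adjusted p = 0.0864) and Lor, the loricrin of the cornified envelope, at 1.25 ± 0.22 (n = 2, limma adjusted p = 0.0921). Other envelope genes stood at the low end, with Ivl at -1.72 ± 1.14 and Sprr1a with log2 ratios of -1.08 and -0.91. Ivl spread widely, at -2.52 on the genotype and -0.91 on the treatment array. The milk protein genes Wap and Csn2, known targets of Elf5, were not well above background in any RNA, nor were Flg, Dsg1a and Alox12b. Elf3 is itself on this list.

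By the distance of the 2 log2 ratios, the tested genes nearest to Ehf among 15130 were Kif22, a kinesin of mitosis, at 0.0252 log2 units, Krt16, a keratin of activated epidermis, at 0.0349, and Ctnnd2, a catenin, at 0.0423. Krt16 had log2 ratios of 0.55 and 1.16, beside 0.52 and 1.17 for Ehf. Nearest to Elf3 were Amy1 at 0.0191, Strap at 0.0273 and Dclre1b at 0.0291. With 2 arrays such nearness is a description of position in the plot of both arrays and no more.

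Ehf and Elf5 lie side by side on chromosome 2, with 0 coding genes between them in the RefSeq order of GRCm38 and their nearest probes 167 kb apart in the array annotation. The 3 coding genes on each side, were looked up after the values of Ehf and Elf5 were seen, and the highest value among them on either array was 0.19. On the Ehf side, Apip had log2 ratios of 0.09 and 0.19, Pdhx of -0.03 and -0.20, and Cd44, a cell surface receptor for hyaluronan, of -0.55 and -1.09. On the Elf5 side, Cat had -0.13 and 0.19, Abtb2 -0.34 and -0.83, and Nat10 0.11 and -0.20. Of these 8 genes in a row, Ehf had the highest log2 ratio on both arrays and Cd44 the lowest.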

How the data were processed

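RNA of 2 prostasphere cultures was hybridized to each of 2 Agilent whole mouse arrays on 1 slide, with no dye swap. Per the file headers, Agilent Feature Extraction 10.5.1.1 recorded spot intensity as a mean and local background as a median, in each dye and without correction. The authors also deposited the software's log10 ratios of Cy5 over Cy3, made from processed intensities after background subtraction, detrending and dye normalization. A deposited table of processed values holds log2 ratios of Cy5 over Cy3, as its slope of 0.961 and 0.975 on the scanner's log2 ratios shows, and its further processing is not given in the sources used here. Titles, treatments and dyes in the labels gave the direction. The source names call the Cy5 RNA SOX9 and the Cy3 RNA Ctrl, and the genotype label reads Sox9 null for both RNAs of the treatment array, so these were not used.

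Background was corrected with normexp (offset of 50) and each array normalized by loess, with control spots at weight 0, in limma 3.58.1 under R 4.3.3. Of 45018 spots, 1639 controls and 126 and 130 outlier spots were left out, 0 were saturated, and spots of a probe were averaged to 41174 probes. Between 53.9% and 56.2% of probes were well above background in a dye. For brightness per RNA, the arrays were further put on one scale of mean intensity (Aquantile), which leaves the ratios as they are. Mean log2 ratios of 22731 probes were tested against 0 with lmFit and eBayes (2-sided), and p-values were adjusted over these probes by Benjamini-Hochberg (1 residual degree of freedom, prior degrees of freedom 2.77, prior SD 0.119). These p-values rest on the spread between 2 arrays, which differ in design, moderated toward a variance shared by all tested probes. They measure no spread between repeats of the same comparison, and the number of arrays limits the precision. Over 167 probes with replicate spots, the median SD within an array was 0.0362 and 0.0429. The code was tested on simulated data.

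Alternatives were another offset, no background subtraction, median centring, scaling of the arrays, the scanner's log ratios, the authors' table, other filters, the methods' t-test, means over probes and each array alone. Named are all probes of the members, Sox9, the 3 genes nearest to the highest and the lowest member, and the 2 highest and 2 lowest genes of each list of related, partner and target genes; other names were chosen after their values were seen. Members and lists were chosen with earlier results of these data known. Python 3.11.15, numpy 2.4.6, pandas 2.3.3 and matplotlib 3.10.9 drew the figures. Gene order on chromosome 2 is from RefSeq (GRCm38). A few genes of the marker lists are not reported here.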

Additional observations from a re-analysis of the deposited data

Results flagged for a closer look

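For 3 member probes the arrays gave opposite signs, and the difference between the arrays was not tested because each comparison has 1 array. The log2 ratio of Elf5 was higher by 0.86 on the treatment array than on the genotype array, at 0.68 against -0.18. For the brighter Grhl1 probe the gap was 0.33, from -0.30 to 0.022, and for the other Grhl1 probe it was 0.056, from -0.019 to 0.038.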

How the results depend on the processing

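The means of the probes of Ehf, Klf4, Klf5 and Elf3 kept their direction under every alternative run, between 0.52 and 1.17 for Ehf probe 1 with an adjusted p from 0.0027 (limma) to 0.636 (the methods' t-test). Other means ran from -0.47 to -0.03 for Elf3, 0.21 to 0.72 for Klf4, 0.05 to 0.52 for Klf5 probe 1 and 0.062 to 1.08 for Klf5 probe 2. Members past the adjusted limma test numbered 3, all probes of Ehf, with median centring and 0 under the other tests run. Past the unadjusted test were 4 member probes, and 2 with the methods' t-test, Klf5 probe 2 and Ovol1 probe 1, neither among the 4. With the authors' table there were 5, as Elf3, lower with Sox9, was added (limma unadjusted p = 0.0402). With the scanner's log ratios Klf4 failed (limma unadjusted p = 0.0795). Ovol1 probe 2, lower with Sox9, passed there instead (limma unadjusted p = 0.0284). With probes averaged per gene, the genes past the unadjusted limma test were 2, Ehf and Klf4, as with the brightest probes. Among all probes, the count past the adjusted test was 2, and it became 522 with median centring, 68 with the authors' table and 0 with an offset of 10, no background subtraction, arrays scaled to the same spread, the scanner's log ratios, the methods' t-test and gene means. The count of all probes 2-fold on both arrays, 95, became 148 without background subtraction, 600 with the scanner's log ratios and 147 with the authors' table. On single arrays it ranged from 298 to 382, and that of member genes from 0 to 1 (Ehf, on the treatment array). Signs turned for the dimmer Grhl1 probe (-0.059 without background subtraction, -0.041 with the scanner's log ratios, -0.057 in the authors' table, and from -0.019 to 0.038 on single arrays), for the brighter one (0.14 with median centring, and from -0.30 to 0.022 on single arrays), for Gata3 (0.29 with median centring), for Ovol1 probe 1 (0.0084 and 0.018 with the scanner's log ratios and the authors' table) and for Elf5 (from -0.18 to 0.68 on single arrays). The cause was not tested. Member probes higher on the treatment than on the genotype array, a count chosen after seeing the data, numbered 10 of 13 with median centring and with scaled arrays. The share of all tested probes in these settings was not counted. The tests of log2 ratios against 0 are paired, because each array pairs its RNAs. No further pairing was possible, since the arrays form 1 group. Brightness close to the negative controls limits Foxa1, Ovol1 and Klf5 probe 2.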
